A study of Mus musculus with 6 samples.

Results

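The ING proteins and the subunits of the NuA4 acetyltransferase complex were followed in the cochlear nucleus of mice after the auditory nerve had been silenced on 1 side. The 10 genes were Ing1, Ing2, Ing3, Ing4, Epc1, Epc2, Kat5, Morf4l1, Morf4l2 and Trrap. They were chosen by the log2 values of Ing3, which was higher on the infused side of these same arrays, so its difference between the sides is given as a description without a test. All probe sets that the platform annotation assigns to 1 of these symbols alone were taken, which gave 13 of the 22690 probe sets on the array, for 7 of the 10 genes. Of these, 12 probe sets of 6 genes had a mean log2 value above 4 over the 6 arrays and were tested. The probe set assigned to Ing4 alone lay below that minimum, and 1 more, assigned to Ing4 and other symbols, was not taken. Kat5 and Epc2 had no probe set under their symbol in the annotation used, and the 8 probe sets of Morf4l1 were assigned to several symbols at once, so these 3 genes were not analysed here.

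Tissue came from 3 pools of ipsilateral cochlear nucleus, the side on which tetrodotoxin had been delivered to the cochlea by an osmotic pump for 24 h at postnatal day 21. It was compared with 3 pools of contralateral nucleus, the other side of mice that carried the same pump, and no untreated mice were included. Tetrodotoxin blocks voltage-gated sodium channels and with them the action potentials of the auditory nerve. Each pool held tissue of 10 to 12 mice, so differences between single mice cannot be seen, and in whole tissue fewer cells of a type and less RNA per cell cannot be told apart.

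ING proteins carry a PHD finger, a small zinc-binding domain that reads methylated histone tails, and bring histone-modifying enzymes to the chromatin of active genes. NuA4, called the TIP60 complex in mammals, acetylates histones on nucleosomes and acts in transcription and in the repair of broken DNA. Ing3 is its ING subunit and Kat5 (TIP60) its catalytic one, while Epc1 and Epc2 anchor the catalytic module and the very large protein Trrap links the complex to transcription factors. Morf4l1 (MRG15) and Morf4l2 (MRGX) are related MRG-domain proteins, of which Morf4l1 has a chromodomain. Ing1 and Ing2 sit instead in the SIN3 deacetylase complex, which removes acetyl groups, and Ing4 in a complex of the acetyltransferase Kat7.

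The promoter of Ing3 is shown because Ing3 is the gene the set was built around and the study asked about transcription after loss of activity; that of Ing4 is shown beside it because it was the other member promoter with the same motif. Both come from RefSeq (GRCm38.p6), at chr6:21949321-21949620 for Ing3 and chr6:125039598-125039897 for Ing4, each on the plus strand, and run from 250 bases before the start site to 50 bases after it. Capitals mark the cyclic AMP response element TGACGTCA, which CREB and ATF factors bind, and its shorter form TGACG, searched on both strands; each full element contains 2 overlapping short ones.
Ing3 promoter: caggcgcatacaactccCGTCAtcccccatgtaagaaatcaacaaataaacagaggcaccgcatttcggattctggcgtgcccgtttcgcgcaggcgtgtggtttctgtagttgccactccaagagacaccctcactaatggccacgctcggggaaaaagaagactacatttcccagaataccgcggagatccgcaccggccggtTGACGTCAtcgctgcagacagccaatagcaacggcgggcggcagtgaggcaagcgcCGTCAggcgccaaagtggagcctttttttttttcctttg
Ing4 promoter: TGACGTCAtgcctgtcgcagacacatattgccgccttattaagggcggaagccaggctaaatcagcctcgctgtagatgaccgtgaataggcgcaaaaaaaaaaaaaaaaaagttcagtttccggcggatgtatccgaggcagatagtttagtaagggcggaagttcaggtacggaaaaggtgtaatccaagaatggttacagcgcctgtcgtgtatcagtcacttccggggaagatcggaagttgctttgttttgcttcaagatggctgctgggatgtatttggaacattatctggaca

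In the Ing3 entry the full element began at position -45 from the start site. Promoters of 9 of the 10 genes were used, in 18 entries of which several of 1 gene overlap. The full element stood in 3 of these 18 entries, namely both overlapping Ing3 entries and that of Ing4, and in 1.79% of all 32851 mouse entries. The short form stood in 12 of the 18 entries, those of Ing1, Ing3, Ing4, Kat5, Morf4l1 and Morf4l2 among them, and in 20.8% of all entries. The GC box GGGCGG, also searched, stood in 16 of the 18 member entries and in 35.7% of all. The short form was thus not the only motif with a larger share among member entries. The E-box CACGTG stood in 2 of the 18 member entries, 1 of Kat5 and 1 of Morf4l2, and in 7.15% of all. These are matches of letters and were not tested as binding sites.

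Ing3 differed most on the probe set 1450760_a_at. It measured 7.04, 5.85 and 7.01 on ipsilateral arrays 1, 2 and 3, against 5.14, 5.43 and 5.23 on contralateral arrays 1, 2 and 3 (log2 GCRMA values). All ipsilateral arrays lay above all contralateral ones, with ipsilateral array 2 nearest to them. The means were 6.63 ± 0.68 on the ipsilateral side and 5.27 ± 0.15 on the contralateral side (SD, n = 3 each), a log2 difference of 1.36 or a 2.57-fold higher signal. By replicate number the difference was 1.90, 0.42 and 1.78, with replicate 2 far below the others. Among all 15298 tested probe sets 4 had a log2 difference of 1 or more in that direction, a share of 0.0261%, and this one was the rule's starting point. Its SD on the ipsilateral side was exceeded by 1.57% of tested probe sets and that on the contralateral side by 50.4%. The contralateral values of 1450760_a_at lay below the array medians, which ran from 5.86 to 5.91. The part of dim signal in its difference was not tested.

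The other probe sets of Ing3 differed by less. Probe set 1422806_x_at measured 7.02, 6.75 and 7.04 on the ipsilateral arrays, against 6.54, 6.26 and 6.75 on the contralateral arrays, a log2 difference of 0.42. It was higher in 3 of 3 replicates, by 0.48, 0.48 and 0.29, although ipsilateral array 2 stood just below contralateral array 3, so the sides overlapped. Probe set 1422805_a_at measured 6.39, 6.59 and 6.83 ipsilaterally, against 6.50, 5.95 and 6.28 contralaterally, a log2 difference of 0.36. Here replicate 1 went the other way, at -0.10, and replicates 2 and 3 differed by 0.64 and 0.55. The replicate with the smallest difference on 1450760_a_at thus had the largest on 1422805_a_at. Over the 3 probe sets, 8 of 9 replicate differences were above 0. The x in 1422806_x_at is the suffix that the manufacturer gives to probes that may also bind other transcripts.

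The mean of the 3 Ing3 probe sets was 6.82, 6.40 and 6.96 on the ipsilateral arrays, against 6.06, 5.88 and 6.09 on the contralateral arrays. The sides did not overlap on this mean, and the log2 difference was 0.71. The platform annotation lists 1 source sequence for all 3 probe sets, so they are not separate evidence. Their differences nevertheless spanned 1.00 on the log2 scale. Of the 1250 genes with 3 or more tested probe sets, 0.32% had as wide a span. Ing3 was chosen for its large difference in this same comparison, so a wide span follows in part from that choice.

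**Figure D1:**
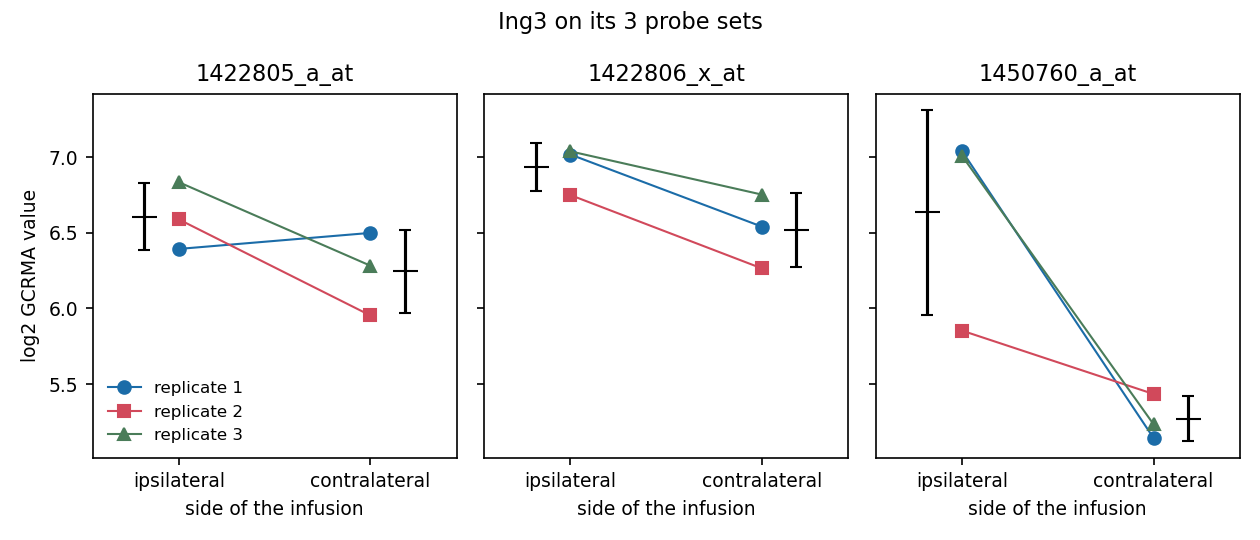
Log2 GCRMA values of Ing3 on each of its 3 probe sets, ipsilateral arrays left and contralateral arrays right; lines join arrays of the same replicate number and black bars give the mean and SD of 3 arrays. On 1450760_a_at the ipsilateral arrays lay between 5.85 and 7.04 and the contralateral arrays between 5.14 and 5.43, while on the other probe sets the sides overlapped.

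Among the other ING genes, Ing1, the founding member and a SIN3 subunit, had 2 tested probe sets that carry the same source sequence. Probe set 1448496_a_at measured 8.15, 8.34 and 8.32 ipsilaterally, against 8.32, 8.39 and 8.33 contralaterally, a log2 difference of -0.07 (95% interval -0.30 to 0.15). Probe set 1416860_s_at measured 8.48, 8.17 and 8.06 ipsilaterally, against 8.15, 8.29 and 8.24 contralaterally, a difference of 0.0077 (95% interval -0.30 to 0.32). The sides overlapped on both, and in replicate 1 the probe sets went opposite ways, at -0.17 and 0.33. Ing2, which also reads methylated histone tails for the SIN3 complex, measured 6.76, 6.56 and 6.60 ipsilaterally, against 6.76, 7.01 and 6.68 contralaterally. Its log2 difference of -0.18 (95% interval -0.46 to 0.11) came mostly from replicate 2, at -0.45, while replicate 1 was level between the sides. Ing4 measured 2.93, 3.00 and 3.08 ipsilaterally, against 3.59, 2.97 and 3.18 contralaterally, all below the minimum of 4 and not read as a level.

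The other NuA4 genes that could be tested had log2 differences between -0.10 and 0.11. Epc1, the enhancer of polycomb homolog that anchors the catalytic module, measured 9.07, 9.08 and 9.36 ipsilaterally, against 8.95, 8.98 and 9.24 contralaterally. It was higher in 3 of 3 replicates by nearly the same amount (0.12, 0.10 and 0.12), but the replicates themselves differed by more, so the sides overlapped (log2 difference 0.11, 95% interval -0.19 to 0.42). Trrap, the scaffold that NuA4 shares with the SAGA complex, measured 8.50, 8.89 and 8.75 ipsilaterally, against 8.68, 8.61 and 8.63 contralaterally. Its difference was 0.07 (95% interval -0.21 to 0.36) and turned negative in replicate 1. The ipsilateral arrays of Trrap spread more (SD 0.20) than the contralateral ones (SD 0.04).

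Morf4l2, the MRG-domain subunit without a chromodomain, was slightly lower on all 4 of its probe sets, with log2 differences of -0.10, -0.08, -0.05 and -0.09. Its probe set 1415778_at measured 11.21, 11.08 and 11.21 ipsilaterally, against 11.28, 11.15 and 11.37 contralaterally, and the sides overlapped. The 4 differences spanned 0.05, and 95% of genes with 3 or more tested probe sets had at least as wide a span. Probe sets 1439413_x_at and 1439432_x_at, like 1456743_x_at, carry the suffix that the manufacturer gives to probes that may also bind other transcripts, and MRG genes have close copies in the genome. The 95% interval of 1415778_at ran from -0.33 to 0.14.

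**Figure D2:**
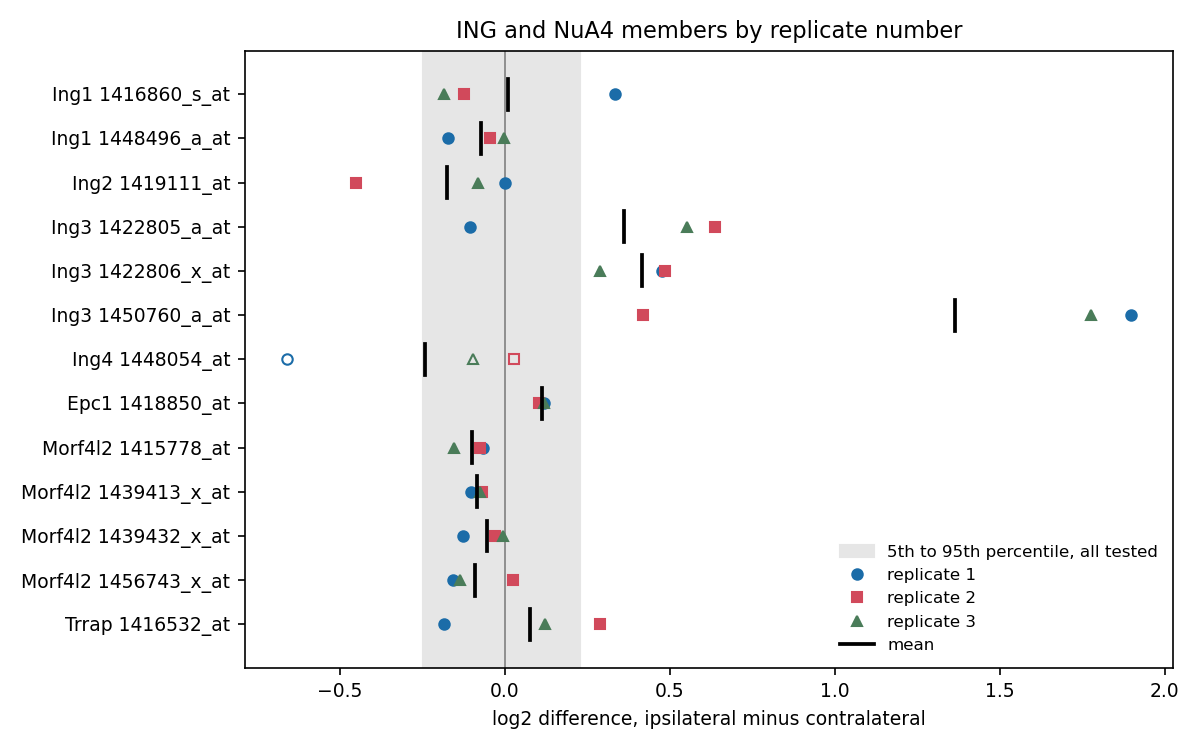
Log2 difference, ipsilateral minus contralateral, of each of the 13 member probe sets; symbols are the 3 replicate numbers, black ticks the mean and open symbols Ing4, which was not tested. The grey band is the 5th to 95th percentile of all tested probe sets, -0.25 to 0.23; the means of the 3 Ing3 probe sets lay above it and all others inside it.

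Tested over all probe sets, 0 of the 12 member probe sets had an adjusted p under 0.05 (limma, Benjamini-Hochberg), as did 0% of the 15298. The smallest adjusted p among the 9 probe sets other than Ing3 was 1.00. Of these 9, 0 had an unadjusted limma p under 0.05, which 2.38% of all tested probe sets had. The 3 ipsilateral arrays stood above all 3 contralateral ones for 1 member, the leading Ing3 probe set, and for 2.82% of all tested, and below them for 0 members and 3.44% of all. In 3 of 3 replicate numbers 3 member probe sets were higher and 5 were lower, against 10.7% and 13% of all tested. The 3 were 1450760_a_at and 1422806_x_at of Ing3, which chose the set, and that of Epc1. The 5 were 1448496_a_at of Ing1, that of Ing2, and 1415778_at, 1439413_x_at and 1439432_x_at of the single gene Morf4l2. Ing2 counted by a replicate 1 difference that rounds to 0. Probe sets of 1 gene are not separate members, so these shares do not compare like with like. Of the 12 member probe sets 6 were higher on average, and 3 of 9 without Ing3, beside 48.2% of all tested. With 1 probe set a gene, that of the highest mean, 3 of 6 member genes were higher and 3 lower, with a median log2 difference of 0.0001, against a median of -0.0029 over 8754 named genes. Without Ing3 the median of the other 5 was -0.07. With 3 arrays a side, the smallest two-sided p that an exact permutation test allows is 0.1.

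The partner genes of these proteins, from 4 lists chosen with earlier results of these data known, did not pass either. Of the 57 genes 44 were tested, 23 of them higher and 21 lower on the ipsilateral side, with a median log2 difference of 0.0043. Adjusted over all probe sets 0 of 44 passed in limma, and at an unadjusted limma p under 0.05 there were also 0, where 1.11% of named genes were higher and 1.33% lower by that rule. These counts use 1 probe set a gene, that of the highest mean, and on these the differences ran from -0.38 to 0.17. Other tested probe sets reached up to 0.72, for Rbbp4 of the SIN3 list, whose remaining probe set differed by -0.13.

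Of the other NuA4 subunits 5 of 9 were higher, with a median of 0.0017 and a range of -0.07 to 0.12. Without probe sets marked x, s or a 3 were higher, out of fewer genes. Dmap1 and Yeats4, both among the 5, have no other tested probe set and drop out there. Dmap1, which binds the DNA methyltransferase Dnmt1, measured 6.94, 7.03 and 6.55 ipsilaterally, against 6.66, 6.91 and 6.60 contralaterally (log2 difference 0.12). Vps72, a subunit that binds the histone variant H2A.Z, differed by 0.10, and the ATPase Ruvbl2 by -0.07. Ep400, the large ATPase that exchanges histone variants, measured 7.31, 7.76 and 7.51 ipsilaterally, against 7.59, 7.38 and 7.60 contralaterally, a difference of 0.0017. It is named outside the rule, after its values were seen, because no other subunit of this list was nearer to 0. On the probe set used for each, all 9 lay inside the 5th to 95th percentile of tested probe sets. The other tested probe set of Mbtd1, at 0.31, lay above it.

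In the list of other MYST acetyltransferase complex genes 1 of 8 was higher, Msl1 (named outside the rule, after its values were seen), with a median of -0.06 over the list against -0.0029 over all named genes, of which 49.1% were higher. The count of 1 was 3 without contralateral replicate 1, contralateral replicate 2 or ipsilateral replicate 1, and 2 without contralateral replicate 3, ipsilateral replicate 3, any replicate number on both sides or both ipsilateral arrays low in choroid plexus markers. Msl3, a chromodomain subunit of the MSL complex, measured 7.72, 7.75 and 7.79 ipsilaterally, against 7.89, 7.89 and 7.78 contralaterally (log2 difference -0.11). The acetyltransferase Kat6a differed by -0.13, and Jade1, the scaffold of the Kat7 complex, by -0.12. For Jade1 other probe sets differed by between -0.03 and 0.14, so its direction depended on the probe set. Msl2, counted as lower at -0.04, differed by 0.18 and 0.18 on its other probe sets. Those of Msl1 differed by 0.09, 0.23 and -0.02, and that of Kat7 by -0.14. The count of 1 thus also depends on the probe set taken for each gene.

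The SIN3 complex, which holds Ing1 and Ing2, had 8 of 13 genes higher with a median of 0.03, but 4 without replicate 2 of both sides and 5 without both ipsilateral arrays low in choroid plexus markers. The deacetylase Hdac1 measured 7.69, 7.74 and 7.78 ipsilaterally, against 7.43, 7.51 and 7.75 contralaterally (log2 difference 0.17), with contralateral array 3 at the ipsilateral level. The scaffold Sin3b differed by -0.20 (its other probe sets by 0.02, -0.02 and -0.14) and Sap30 by -0.11. The SAGA complex, which shares Trrap with NuA4, had 9 of 14 genes higher with a median of 0.04, and 5 higher without ipsilateral replicate 3. Its acetyltransferase Kat2b differed by 0.15 (its other probe set by 0.01), Taf5l by 0.14 and Atxn7 by -0.38. Atxn7, the gene expanded in a spinocerebellar ataxia, measured 4.55, 5.40 and 4.39 ipsilaterally, against 5.44, 5.11 and 4.93 contralaterally, near the minimum of 4 and with overlapping sides.

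**Figure D3:**
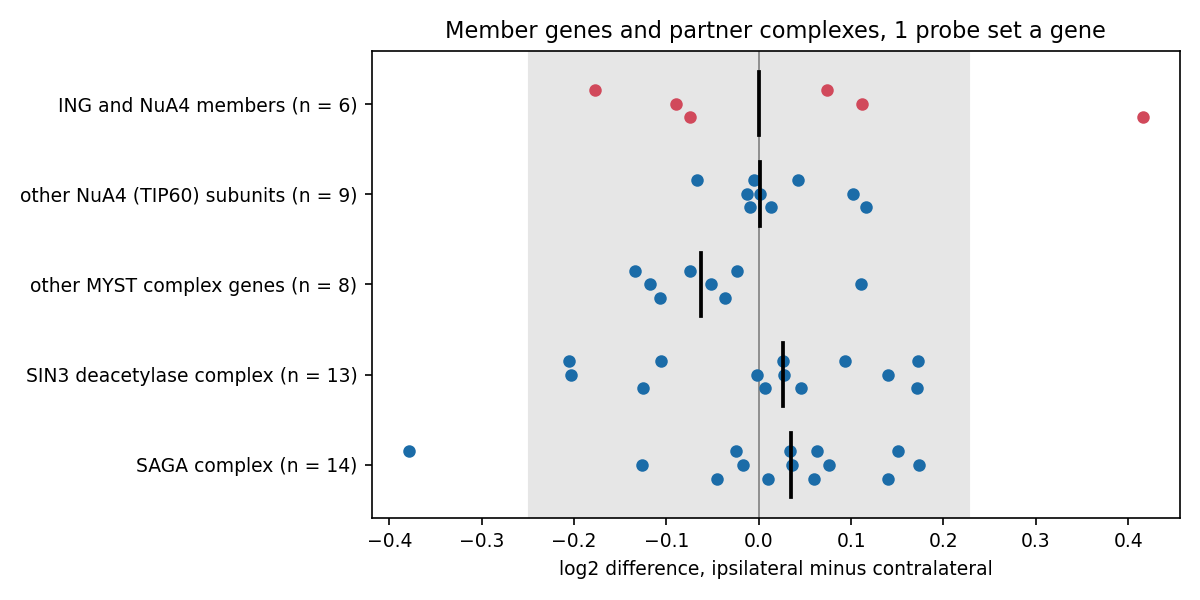
Log2 difference, ipsilateral minus contralateral, of the 6 tested member genes (red) and of the tested genes of 4 partner complexes (blue), 1 probe set a gene; black ticks are medians and the grey band is the 5th to 95th percentile of all tested probe sets. Ing3, drawn here with 1422806_x_at at 0.42, and Atxn7, at -0.38, lay outside the band.

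The genes whose pattern over the 6 arrays was most like that of the leading Ing3 probe set were Prmt1, Cplx2, Rbbp4, Utp6 and Rian. Likeness was the root mean square distance between log2 values centred on each probe set's mean, which was 0.34, 0.36, 0.38, 0.43 and 0.44 for these 5, where a flat profile would stand at 0.79. Prmt1, an arginine methyltransferase, measured 9.33, 8.53 and 9.25 ipsilaterally, against 8.23, 7.63 and 8.13 contralaterally. The probe set 1454791_a_at of Rbbp4, a histone-binding subunit of the SIN3 complex, measured 8.99, 8.05 and 9.26 ipsilaterally, against 8.03, 7.85 and 8.27 contralaterally. All 5 were lower on ipsilateral array 2 than on ipsilateral arrays 1 and 3, as the leading Ing3 probe set was. That follows largely from choosing them by likeness to it over these same arrays. No p is given, because genes close to a pattern with a difference between the sides must themselves have one.

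The genes of this group with several tested probe sets differed by less on their other probe sets, as Ing3 did. Rbbp4 and Utp6 each also had a probe set that was lower on average, which Ing3 had not. The resembling probe set was picked for likeness to a large difference, so smaller values on the others follow in part from that choice. Rbbp4 differed by 0.72 on the probe set that resembled Ing3, and by 0.03 and -0.13 on its others. Utp6, a factor of ribosomal RNA processing, differed by 0.63 on the resembling probe set and by 0.37 and -0.13 on its others. The noncoding RNA Rian differed by 0.67, against 0.34 and 0.01 on its others, while Prmt1 and Cplx2, a regulator of vesicle fusion, each had 1 tested probe set. Of the members other than Ing3 none stood close to the leading probe set: the nearest was Epc1 at a distance of 0.73, and 9.63% of tested named probe sets were nearer.

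The level of cell type markers varied between the arrays. Markers of neurons were tested for 11 of 11 genes and those of the cochlear nucleus for 8 of 11. Neuron markers averaged 10.01, 10.04 and 10.41 on the ipsilateral arrays, against 10.01, 10.04 and 10.28 on the contralateral arrays. Markers of cerebellar granule and Purkinje cells averaged 9.17, 9.17 and 9.64 ipsilaterally, against 9.30, 9.29 and 9.62 contralaterally. Both were highest on the 2 arrays of replicate 3, where Epc1 was highest on each side too; their part in the Epc1 values was not tested. Markers of the choroid plexus, the secretory tissue beside the nucleus, averaged 9.19, 4.87 and 5.09 on the ipsilateral arrays, against 8.18, 7.89 and 7.41 on the contralateral arrays, over 8 of 11 genes tested, all 8 lower on average. Without ipsilateral arrays 2 and 3, which were low in them, 1 ipsilateral array remained (an alternative chosen after seeing the data). Ing3 then differed by 1.77 on 1450760_a_at, 0.50 on 1422806_x_at and 0.15 on 1422805_a_at, Epc1 by 0.01 and Ing2 by -0.06. That choice turned Trrap to -0.14 and 1439413_x_at of Morf4l2 to 0.04, and moved Ing1 to 0.25 on 1416860_s_at and -0.20 on 1448496_a_at.

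Markers of microglia were higher for 9 of 9 genes tested. They averaged 7.42, 7.41 and 7.34 on the ipsilateral arrays, against 7.07, 7.14 and 7.32 on the contralateral arrays. The sides did not overlap, but replicate 3 was nearly level, at 7.339 against 7.317. Astrocyte markers were higher for 8 of 9, at 10.36, 10.36 and 10.36 ipsilaterally, against 10.34, 10.18 and 10.35 contralaterally, again without overlap by a narrow margin. Oligodendrocyte markers were higher for 7 of 7, at 13.01, 13.11 and 13.05 ipsilaterally, against 12.93, 12.90 and 13.04 contralaterally. The part of these cells in the Ing3 values was not tested. Red blood cell markers, tested for 2 of 4 genes (not for Hbb-b1 or Hba-a1), averaged 6.77, 6.09 and 6.81 ipsilaterally, against 6.65, 6.67 and 6.64 contralaterally, with ipsilateral array 2 lowest. For Ing3 ipsilateral array 2 was the lowest of its side on 1450760_a_at and 1422806_x_at, and ipsilateral array 1 on 1422805_a_at. Control probe sets at the ends of the Actb transcript, which show RNA integrity, differed between the 3' and the 5' end by 1.06, 1.30 and 1.24 (log2) on the ipsilateral arrays, against 1.22, 0.93 and 1.24 on the contralateral arrays. Those of Gapdh differed by -0.01, 0.20 and -0.08 ipsilaterally, against 0.10, -0.18 and -0.04 contralaterally. The sides were thus farthest apart in replicate 2, the replicate of the smallest difference on 1450760_a_at, and the part of RNA integrity was not tested.

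**Figure D4:**
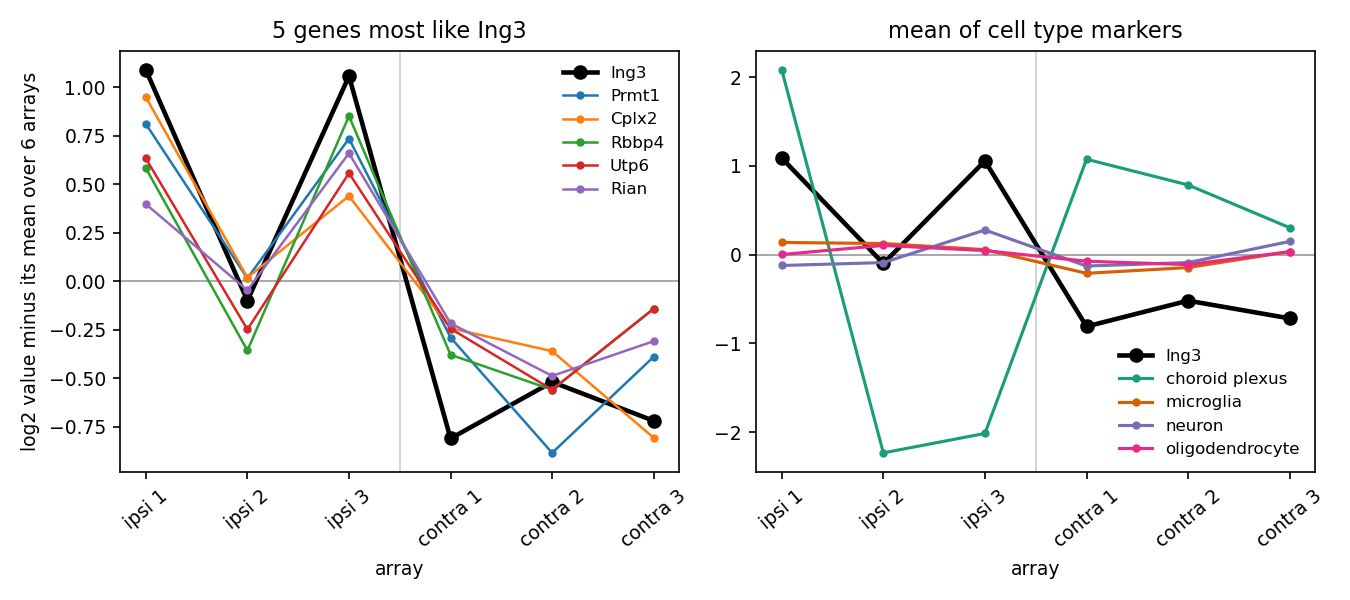
Log2 values centred on their mean over the 6 arrays, ipsilateral arrays left of contralateral arrays: the leading Ing3 probe set (black) with the 5 genes nearest to it (left), and with the mean of 4 marker lists (right, on a wider axis). The leading Ing3 probe set was lower on ipsilateral array 2 than on ipsilateral arrays 1 and 3. So were the 5 genes, which were chosen for likeness to it over these arrays. The choroid plexus mean was high on ipsilateral array 1 and low on the other ipsilateral arrays.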

How the data were processed

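RNA levels were measured in 6 samples, 3 ipsilateral and 3 contralateral, with 1 Affymetrix array for each pool. The authors deposited log2 GCRMA values for 22690 probe sets: per the submitters' processing notes they used GCRMA, which corrects background by probe sequence, normalizes between arrays and summarises probes; GCRMA's version is not given in the sources used here. That the scale is log2 follows from the range (1.40 to 16.0). GCRMA pulls dim probe sets toward a floor, so their differences are uncertain. Arrays have no read depth, and their number limits the precision.

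Each sample's description gave its group and number, and the series calls the pools biological replicates. Names are from the repository's platform annotation, and 13 of 13 member probe sets matched RefSeq by Entrez identifier. Without 64 control probe sets and 7328 with a mean at or below 4, 15298 were fitted with limma 3.58.1 (R 4.3.3; lmFit, eBayes; Benjamini-Hochberg, threshold 0.05), ipsilateral minus contralateral with no block. The members, lists and rules were chosen with earlier results of these data known. All members are named, with up to 3 genes a list by smallest limma p and the 5 genes nearest to Ing3.

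The series describes infusion on 1 side and tissue pooled per replicate, from which the number was taken to mark both sides of the same mice; the labels give only the number. Across tested probe sets the deviations of the 2 sides correlated at 0.09 for replicate 1, 0.04 for replicate 2 and 0.57 for replicate 3, and those of different numbers at -0.37 to 0.30. Alternatives were the replicate block, quantile normalization or median centring, no filter or a minimum mean of 6, array weights, a robust and trended variance, fewer probe sets, the mean of a gene's probe sets, and leaving out arrays. Simulated data had these 15298 probe sets, with 200 changed in each run by log2 sizes of 0.5, 1, 2 or 4. Noise was drawn independently for each value. The fit recovered 23.6% of probe sets changed by a size of 0.5, 68.4% at a size of 1 and 92.8% at a size of 2. Of the calls 4.44% were false. The Benjamini-Hochberg threshold depends on how many probe sets change, and shifts shared by many probe sets were not simulated. These rates are thus not the power for the deposited values.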

Additional observations from a re-analysis of the deposited data

How the results depend on the processing

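The leading Ing3 probe set kept a higher ipsilateral value in 16 of 16 alternatives (1.10 to 1.84), and 0 member probe sets passed the adjusted threshold in any. The direction is no test. All ipsilateral arrays lay above all contralateral ones, so leaving arrays out could not reverse it. The replicate block, the robust and trended variance and the lack of a filter leave this mean difference unchanged. Leaving arrays out could not reverse the mean of the Ing3 probe sets either, since its sides did not overlap. The mean of the Ing3 probe sets differed by 0.60 to 0.88 without 1 array or pair, and by 0.39 with a mean above 6, a minimum that removes the leading probe set. With the replicate block the leading difference was 1.36 and 0 probe sets passed, so it changed no call. Member probe sets with an unadjusted limma p under 0.05 were all of Ing3, which chose the set. Their number is no test and is not followed through the alternatives. Leaving out probe sets marked x, s or a removes all 3 of Ing3, so no Ing3 value exists there. The count of 1 member whose sides do not overlap was 0 with a mean above 6 and without probe sets marked x, s or a. It was 2 with quantile normalization or median centring, and 1 to 6 without 1 array or pair, where fewer arrays overlap less. The share over all tested probe sets is not given for these alternatives, so the counts are not read as a result about the members. Over all probe sets 0 to 5 passed without 1 array or pair: 5 when ipsilateral replicate 1 was left out and 2 when both samples of replicate 1 were. Member genes higher numbered 2 to 3, with medians of -0.07 to 0.07. Of 263 values of single members and lists under alternatives, 17 moved beyond the spread between replicates or, as counts, beyond a set factor. Array number and dim signal limit these results, the latter for Ing4 and for the contralateral values of the leading Ing3 probe set.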
